A study of Mus musculus with 12 samples.

Results

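Transcripts nearly absent from the kidneys of a single genotype, Gm6300, Neurog2, Eif1ad3, Eif1ad7, 4930422C21Rik and Gm45203, were followed across 12 mice. These 6 were chosen by name from 57490 genes because their counts were close to 0 in all Ctrl mice or in all Model mice, so the Model and Ctrl values below are a description without a test. The YHY mice played no part in the choice. All 6 passed the low-count filter that left 17431 genes, each through the groups in which it was present.

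RNA was sequenced from 4 mice per group, all male and 13 weeks old. The Ctrl mice were BKS db/+ heterozygotes, also called db/m, which carry a single db allele of Lepr and had normal blood glucose; a sample label that calls db/m wild-type is at odds with this. The Model mice, homozygous for db and selected for high blood glucose, were BKS mice as well. Without a functional leptin receptor they turn obese and diabetic. The YHY mice were db/db mice of the same strain and selection that received the water extract of Yiqi Huoxue Yangyin Decoction (YHY), a herbal preparation, at 6.24 g/mL by daily gavage for 4 weeks, whereas Ctrl and Model mice received purified water; which dose group of the paper this is, is not given in the sources used here. Genotype, obesity and diabetes differ together between Ctrl and db/db mice and cannot be told apart here, and no DNA variants were measured, so a strain or haplotype origin of any difference was not tested. The tissue is labelled kidney, and renal cortex in the series design.

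Libraries of poly(A) RNA held 29632718 to 33276634 counts in the Ctrl group, 24415658 to 29784346 in the Model group and 25149764 to 29698342 in the YHY group. Mitochondrial transcripts took 18.4% to 22.7% of the counts in Ctrl mice, 41.2% to 58.9% in Model mice and 53.8% to 64.6% in YHY mice. This share moved with genotype, and its part in the results was not tested. Levels are given as CPM, the count relative to the library size after TMM scaling. A total of 3 counts corresponded to 0.0683 to 0.166 CPM, depending on the mouse. Because whole tissue was sequenced, fewer cells of a type and less RNA per cell cannot be told apart.

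Lepr, the leptin receptor gene, was read before the others. It had 445, 155, 407 and 512 counts in the Ctrl mice, 257, 139, 61 and 182 in the Model mice and 435, 129, 319 and 112 in the YHY mice. These ranges overlap, and a total count per gene does not check a mutation that alters splicing. Lepr lies on chromosome 4, and none of the 6 transcripts does.

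The 6 transcripts are of several kinds. Neurog2 encodes a basic helix-loop-helix transcription factor that starts neuronal differentiation in neural progenitors, and the adult kidney is not a tissue it is known for. Eif1ad3 and Eif1ad7 belong to a tandem family of genes related to the translation initiation factor eIF1A, which helps the small ribosomal subunit find the start codon. Gm6300 is an unprocessed pseudogene, a copy of a gene that keeps introns but is not annotated as coding; 4930422C21Rik is a long non-coding RNA; and Gm45203 is annotated as TEC, a class for transcripts that await experimental proof.

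Of the transcripts present in Ctrl mice, Gm6300 was the most abundant. It is ENSMUSG00000104375 at chr3:14428177-14442647 on the plus strand (GRCm39), and its annotated transcript has 1498 bases. It had 3353, 2125, 1623 and 679 counts in the Ctrl mice, 0 in each Model mouse, and 4, 0, 0 and 0 in the YHY mice. All Ctrl mice stood far above all db/db mice, although the Ctrl mice themselves differed widely, with 50.5 ± 28.8 CPM (SD, n = 4). The Ctrl level was at least 1590-fold higher than in Model mice, taking a floor of 3 counts over the whole Model group, and 1190-fold higher than in YHY mice (95% counting interval 465 to 4370), where all 4 counts came from YHY 1.

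Neurog2 is ENSMUSG00000027967 at chr3:127426784-127429280 on the plus strand (GRCm39), on the same chromosome as Gm6300 but far from it. It had 307, 141, 237 and 139 counts in the Ctrl mice, 0, 2, 0 and 0 in the Model mice and 0 in each YHY mouse. The Ctrl mean was 5.18 ± 1.81 CPM (SD, n = 4), and no db/db mouse came near it. The Ctrl level was 253-fold that of Model mice (95% counting interval 69.8 to 2090), and at least 168-fold higher than in YHY mice against the same floor of 3 counts over the group. Both Model counts came from Model 2; without it, the Ctrl level was at least 132-fold higher than in Model mice.

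The promoter of Neurog2 is shown because it is the only one of the 6 matched in the RefSeq promoter set. It spans chr3:127632886-127633185 on the plus strand (GRCm38.p6, a build other than that of the count table), with capitals marking the letters TATATAA, 29 bases before the gene's start.
Neurog2: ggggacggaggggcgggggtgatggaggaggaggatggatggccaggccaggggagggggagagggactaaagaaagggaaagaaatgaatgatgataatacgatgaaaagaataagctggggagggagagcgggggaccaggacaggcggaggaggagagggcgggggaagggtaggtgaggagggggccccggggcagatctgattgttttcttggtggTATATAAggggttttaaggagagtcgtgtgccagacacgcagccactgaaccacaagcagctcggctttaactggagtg
On both strands, TATATAA occurred once here and in 3.24% of 32851 promoters of the same length. The E-box letters CANNTG, searched likewise, occurred 0 times here and in 72.3% of promoters; a match or its absence is a description of these 300 bases.

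Eif1ad7 is ENSMUSG00000079029 at chr12:88237410-88241270 on the minus strand (GRCm39). It had 137, 151, 294 and 159 counts in the Ctrl mice, 0 in each Model mouse, and 6, 0, 2 and 0 in the YHY mice. Its Ctrl mean was 4.71 ± 1.77 CPM (SD, n = 4), at least 152-fold the Model level against the floor and 56.7-fold that of YHY mice (95% counting interval 28.6 to 132), or 165-fold (45.6 to 1370) without YHY 1. Eif1ad3, ENSMUSG00000072905 at chr12:87840842-87844629 on the plus strand (GRCm39), lies 393 kb away. It had 73, 66, 155 and 91 counts in the Ctrl mice and 0 in each of the 8 db/db mice. Its Ctrl mean was 2.42 ± 0.929 CPM (SD, n = 4), at least 78.8-fold the Model level and at least 78.5-fold the YHY level.

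These 2 genes cannot be fully separated by short reads. Their transcripts, taken from the GENCODE M21 set, were 99.32% identical over 1766 bases, with 12 mismatches, and 64.7% of the 100-base windows of Eif1ad3 occurred exactly in a transcript of another gene. The coding sequences, 432 bases each without the stop codon, differed at 4 positions, T63A, G271A, C276A and A370G, counted from 1 at the start codon with the base of Eif1ad3 given before the position. The stretch from base 221 to base 370 is shown because it holds 3 of these, in capitals.
Eif1ad3: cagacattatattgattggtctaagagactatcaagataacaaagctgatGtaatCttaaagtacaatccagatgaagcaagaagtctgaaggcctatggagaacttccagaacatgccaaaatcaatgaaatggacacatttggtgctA
Eif1ad7: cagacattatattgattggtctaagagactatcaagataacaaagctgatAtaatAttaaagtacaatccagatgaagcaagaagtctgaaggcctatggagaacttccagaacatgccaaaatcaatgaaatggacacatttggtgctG
How the authors treated reads that match several genes is not given in the sources used here. The split of counts between the copies is therefore uncertain, and their sum depends on this treatment as well.

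The sum over the tandem family showed the same split, resting mostly on these 2 genes. The 17 numbered Eif1ad genes lie at chr12:87532731-88296452 (GRCm39), and 10 of them had any count. Their summed counts were 228, 225, 493 and 282 in the Ctrl mice, 0 in each Model mouse, and 18, 0, 2 and 0 in the YHY mice. Eif1ad3 and Eif1ad7 made up 88.7% to 96.4% of the sum in Ctrl mice, and Eif1ad7 had 1.75 to 2.29 counts for each count of Eif1ad3. Eif1ad4 had 5, 2, 19 and 18 counts and Eif1ad10 had 3, 1, 16 and 8 counts in the Ctrl mice, with 0 in every db/db mouse. The 12 counts of Eif1ad16 in YHY 1 were the main exception among the db/db mice. The summed Ctrl level was at least 251-fold higher than in Model mice against a floor of 3 counts over the group.

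**Figure D1:**
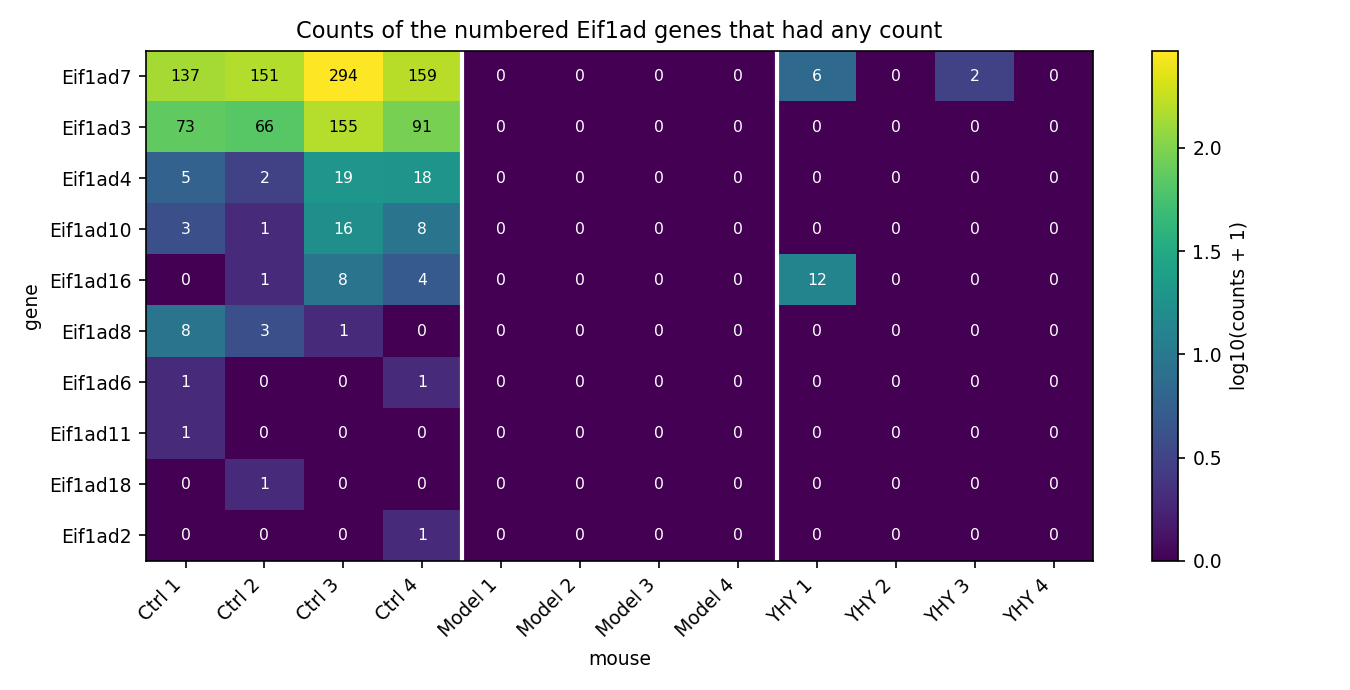
Counts of the 10 numbered Eif1ad genes with any count (rows) in each of the 12 mice (columns), coloured by log10(counts + 1) with the count written in each cell. All 4 Model columns are at 0, and the YHY columns hold 20 counts in all, 18 of them in YHY 1.

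The transcripts present in db/db mice behaved in the opposite way. 4930422C21Rik is ENSMUSG00000110476 at chr8:116908190-116914108 on the minus strand (GRCm39). It had 0, 0, 2 and 0 counts in the Ctrl mice, 120, 122, 168 and 191 in the Model mice, and 135, 74, 177 and 202 in the YHY mice. All 8 db/db mice were far above the Ctrl mice, with 6.38 ± 1.96 CPM in Model and 5.91 ± 1.64 CPM in YHY mice (SD, n = 4 each). The Model level was 489-fold that of Ctrl (95% counting interval 135 to 4050) and the YHY level 480-fold (132 to 3980). Both Ctrl counts came from Ctrl 3; without it, the levels were at least 242-fold and 238-fold higher than in Ctrl mice.

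Gm45203 fits the description less well, because it was low but not off in Ctrl mice. It is ENSMUSG00000108494 at chr7:79760552-79762382 on the minus strand (GRCm39). It had 4, 18, 8 and 10 counts in the Ctrl mice, 80, 269, 290 and 327 in the Model mice, and 224, 222, 173 and 62 in the YHY mice. Ctrl and db/db mice did not overlap, as was so between Ctrl and Model for 19.9% of all genes in the higher and 20.3% in the lower direction, but Model 1 and YHY 4 stood well below the other db/db mice of their groups. The level was 39.3-fold that of Ctrl in Model mice (95% counting interval 28.7 to 55.4) and 27.8-fold in YHY mice (20.2 to 39.3). These intervals cover counting error only.

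**Figure D2:**
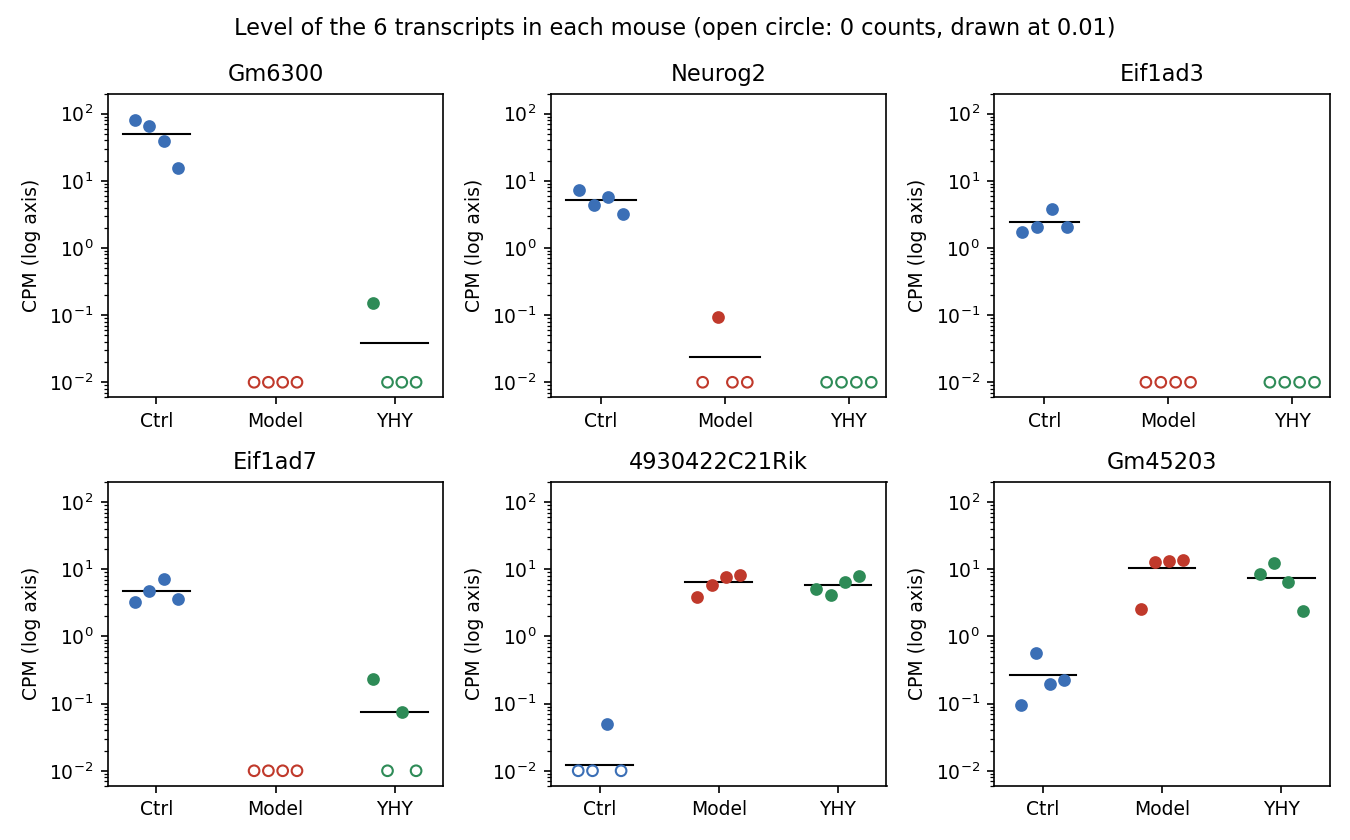
CPM (log axis) of each of the 6 transcripts in the 4 Ctrl, 4 Model and 4 YHY mice, with 1 point per mouse, a line at the group mean and open circles at the bottom for mice with 0 counts. The YHY points lie with the Model points in every panel, and Ctrl points lie apart.

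Per kb of transcript, the mean Ctrl levels ran from 33.7 CPM per kb for Gm6300 to 2.56 for Eif1ad7, 2.33 for Neurog2 and 1.37 for Eif1ad3. The levels of Eif1ad7 and Neurog2 differed by less than their spread between mice. In Model mice, Gm45203 had 5.82 and 4930422C21Rik 2.70 CPM per kb.

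The YHY mice were not used to choose the transcripts, but the Ctrl mice they are set beside were, so YHY against Ctrl is also a description of the 6 without a test. Neurog2, Gm6300, Eif1ad3 and Eif1ad7 were lower in 4 of 4 YHY mice than in any Ctrl mouse, and 4930422C21Rik and Gm45203 were higher in 4 of 4. Over all genes, 22.7% were lower and 21.9% higher without such overlap. In edgeR's quasi-likelihood test of YHY against Ctrl, 24.2% of all genes were lower and 26.1% higher at an adjusted P under 0.05.

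YHY against Model asked whether gavage with YHY moved the transcripts from the level of untreated db/db mice. At an adjusted P under 0.05, 13.3% of all genes were called. Neither transcript that was present in db/db mice was among them. 4930422C21Rik had a log2 fold change of -0.10 (SE 0.34, adjusted P = 0.885) and Gm45203 of -0.52 (SE 0.50, adjusted P = 0.537), with overlapping mice in both. This does not show that the levels were equal, and the Model mice had entered the choice. For the 4 transcripts present in Ctrl mice, both db/db groups had at most 8 counts in all, and no fold is given. The highest count of any of these in a YHY mouse was 6, for Eif1ad7 in YHY 1.

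To place the 6 transcripts among all genes, those with at most 3 counts in every mouse of Ctrl or of Model and at least 20 in every mouse of the other were counted. There were 11 such genes, 0.0191% of the 57490 listed. Of these, 6 (0.0104%) were silent in Model (Gm6300, Neurog2, Eif1ad7, Eif1ad3 and 2 unnamed transcripts) and 5 (0.0087%) in Ctrl (4930422C21Rik, Gm48771, Gm44545, Acr and an unnamed transcript). Gm45203, with 4 to 18 counts in the Ctrl mice, did not meet the limit. The unnamed transcript at chr4:13651991-13671696 had 860, 336, 999 and 517 counts in Ctrl mice and 0 in each Model mouse, and the one at chr5:146110760-146117390 had 126, 70, 137 and 182 in Ctrl mice and 0, 2, 0 and 0 in Model mice. Gm48771 had 0 to 3 counts in Ctrl, 26 to 127 in Model and 8 to 78 in YHY mice, and Gm44545 had 0 to 1, 20 to 48 and 4 to 61. Acr, which encodes the sperm protease acrosin, had 0 counts in each Ctrl mouse, 33, 38, 28 and 36 in the Model mice and 87, 59, 24 and 45 in the YHY mice.

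The YHY mice were then read for these 11 genes. For the 6 genes silent in Model, 21 of 24 values in YHY mice were also at most 3 counts, the other 3 lay between, and 0 reached 20. For the 5 genes silent in Ctrl, 15 of 20 values in YHY mice reached 20 counts, 5 lay between and 0 were at most 3. These values come from the same YHY mice and are not independent, and reads of Eif1ad3 and Eif1ad7 cannot be fully separated. How often other genes low in Model mice are also low in YHY mice was not counted. With up to 10 counts allowed in a mouse of the low group, 67 genes were counted in place of 11. Kcng1 and Gm3776 are examples of those just outside the limit. Kcng1 had 125 to 226 counts in Ctrl, 2 to 10 in Model and 0 in each YHY mouse. Kcng1 was picked by its low Model counts and passed the filter through the Ctrl mice, so no test of YHY against Model is given. Gm3776 had 0 to 4 counts in Ctrl, 65 to 129 in Model and 98 to 305 in YHY mice. Only 1 of the 11 genes lies on chromosome 4, which carries Lepr.

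**Figure D3:**
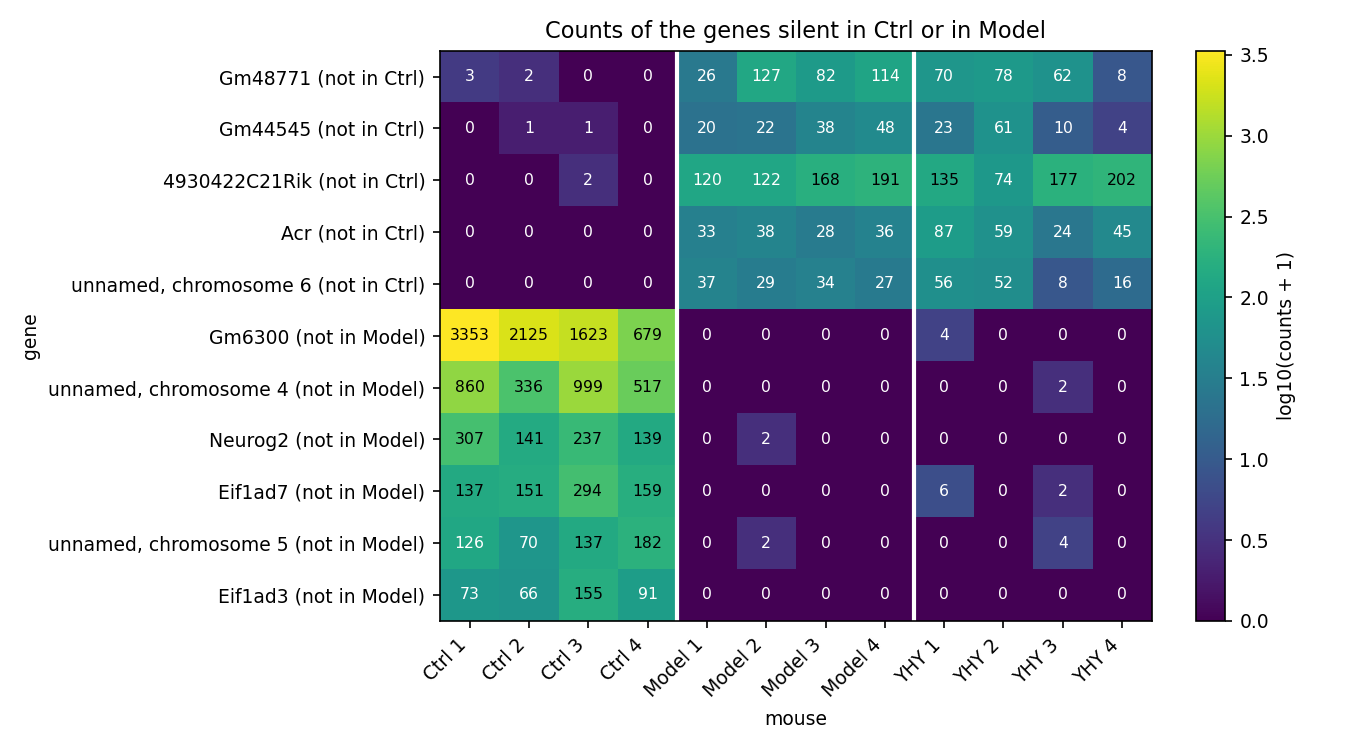
Counts of the 11 genes (rows) silent in Ctrl or in Model in each of the 12 mice (columns), coloured by log10(counts + 1) with the count written in each cell. The YHY columns resemble the Model columns, with low counts of 4 to 16 for Gm48771, Gm44545 and an unnamed transcript in YHY 3 or YHY 4.

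Genes around each transcript were examined for a wider change in the same stretch of chromosome. Of 57 other genes tested within 500 kb, 23 (40.4%) were called in Model against Ctrl by edgeR, 18 higher and 5 lower, beside 38% of all genes tested (19.6% higher and 18.5% lower). The share in both directions together was close to the background, but 31.6% of the neighbours were higher and 8.77% lower; this was not tested. Near Gm6300, only E2f5, a cell cycle transcription factor 201 kb away, was called among 7 genes, with a log2 fold change of -1.20 (adjusted P = 9.64e-05). Near Neurog2, Zgrf1, 15.1 kb before it, was higher in Model mice with a log2 fold change of 2.15 (adjusted P = 0.000918), opposite in direction to Neurog2, and Alpk1, 34.7 kb after it, likewise with 1.15 (adjusted P = 0.0175). Near Eif1ad3, the pseudogene Gm48873 rose from 0 to 8 counts in Ctrl mice to 34 to 48 in Model mice (adjusted P = 0.000828), while the nearest tested gene to Eif1ad7, Adck1, had a log2 fold change of -0.22 (adjusted P = 0.382). Near 4930422C21Rik, 3 of 4 genes were higher in Model mice, among them Maf, a transcription factor gene 474 kb away, with a log2 fold change of 1.45 (adjusted P = 0.00313).

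The other near genes showed mixed directions. On the far side of Gm6300, Ralyl, 181 kb before it, had a log2 fold change of -0.28 (adjusted P = 0.819). Around Neurog2, Ank2 and Gm43652 were also higher in Model mice, with 0.94 (adjusted P = 0.0231) and 3.54 (adjusted P = 0.00648). Before Eif1ad3, Snw1 had -0.70 (adjusted P = 0.054) and Alkbh1 was higher, with 0.87 (adjusted P = 0.00499). The genes closest to 4930422C21Rik were an unnamed transcript 82.3 kb after it, with 4.66 (adjusted P = 0.0058), and ENSMUSG00000120146, a long non-coding RNA 339 kb before it, with 1.95 (adjusted P = 0.00168). Of 30 genes near Gm45203, 9 were higher and 4 lower, among them Zfp710 with 0.54 (adjusted P = 0.0064), Sema4b with 0.58 (adjusted P = 0.039), Rccd1 with 1.25 (adjusted P = 0.00381), Ttll13 with 1.62 (adjusted P = 0.00418) and Anpep with -0.78 (adjusted P = 0.00394).

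**Figure D4:**
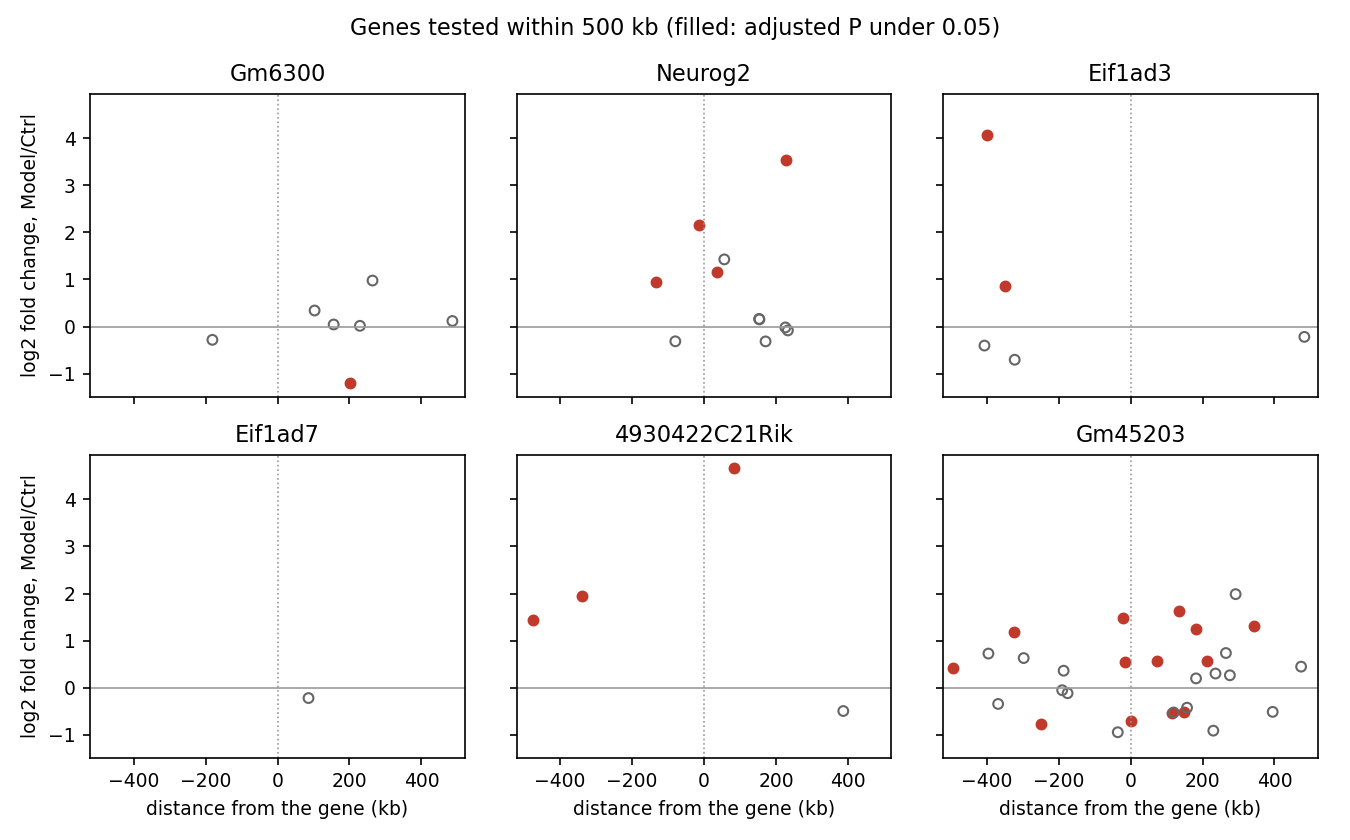
Log2 fold change in Model against Ctrl (vertical axis) of the genes tested within 500 kb of each transcript, against their distance in kb (negative: before it on the chromosome); filled points had an adjusted P under 0.05. Called neighbours of Neurog2 were higher in Model mice, whereas Neurog2 was nearly absent there.

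Gm45203 lies within Idh2, the gene of mitochondrial isocitrate dehydrogenase 2, on the same strand. In the GENCODE M21 annotation (GRCm38) it falls in the first intron of Idh2 and overlaps no exon of it, so reads from unspliced Idh2 RNA and from Gm45203 cannot be told apart in these counts. Idh2 itself moved the other way, with 14520, 11650, 15794 and 18642 counts in the Ctrl mice, 9016, 4470, 4519 and 5228 in the Model mice and 6125, 3090, 8822 and 5803 in the YHY mice. Its log2 fold change was -0.71 in Model against Ctrl (adjusted P = 0.00859) and -0.67 in YHY against Ctrl (adjusted P = 0.00826). For 1000 counts of Idh2 there were 0.275 to 1.55 of Gm45203 in Ctrl mice, 8.87 to 64.2 in Model mice and 10.7 to 71.8 in YHY mice.

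A comparison chosen after these values were seen set Gm45203 beside other TEC genes. Of 289 tested TEC genes, 103 were higher and 6 lower in Model against Ctrl, with a median log2 fold change of 0.948, beside 19.6% and 18.5% of all genes with a median of 0.04. Of the 117 among them inside a protein-coding gene on the same strand, 66 were higher and 2 lower, with a median of 2.55. In YHY against Ctrl, 118 of the 289 were higher and 10 lower, with a median of 1.37, and 74 and 2 of the 117, with a median of 2.45, beside 26.1% and 24.2% of all genes with a median of 0.10. In YHY against Model, 3 of the 289 were higher and 2 lower, and 1 and 0 of the 117, beside 982 and 1329 of 17431 genes. These counts carry no test of the group of genes, and Gm45203 is not among them.

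Gm6300 resembles Slc7a12, an amino acid transporter gene of the kidney 103 kb after it. Their transcripts were 75.7% identical over 1396 aligned bases, with 0 shared windows of 100 bases. Slc7a12 had 181, 174, 180 and 950 counts in the Ctrl mice, 246, 297, 239 and 293 in the Model mice and 152, 98, 285 and 181 in the YHY mice. It was present in both genotypes and not called (log2 fold change in Model against Ctrl 0.34, adjusted P = 0.567), but this rests on Ctrl 4. In a fit added after the values were seen, without that mouse, Slc7a12 was called higher in Model mice, with 1.21 (adjusted P = 0.00349; up to 0.932 without another mouse). Ctrl 4 had the highest Slc7a12 count and the lowest Gm6300 count of its group.

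**Figure D5:**
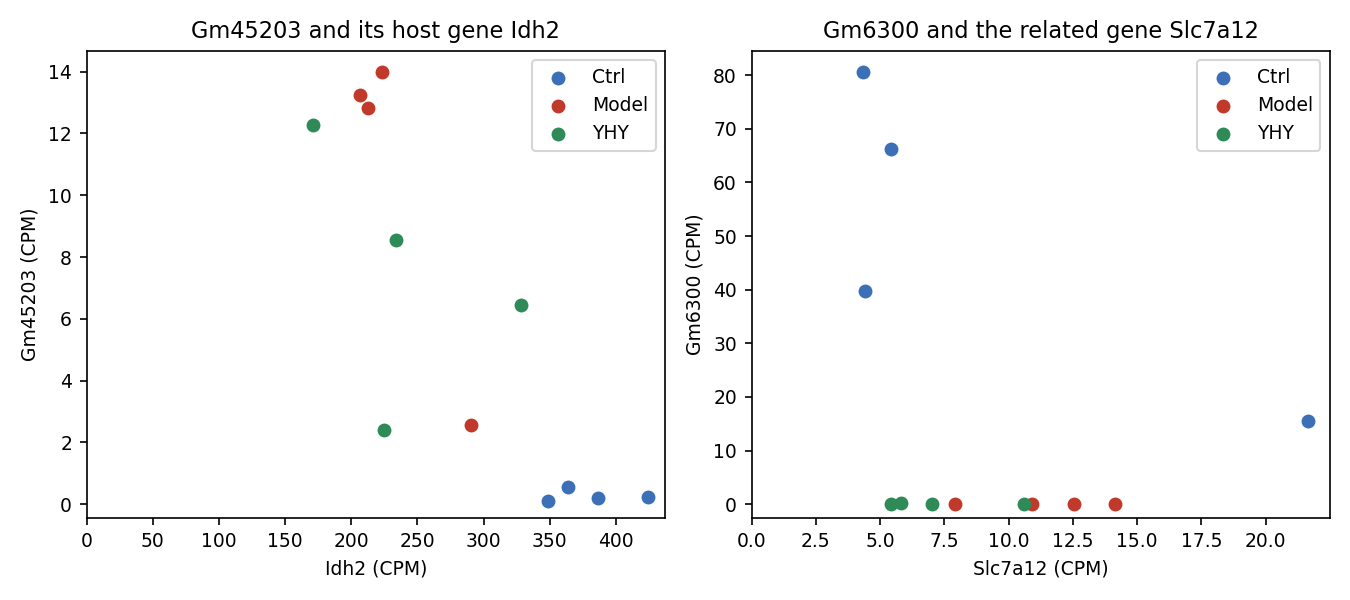
CPM in each mouse of Gm45203 against its host gene Idh2 (left) and of Gm6300 against Slc7a12 (right), with 1 point per mouse coloured by group. Ctrl mice have high Idh2 with little Gm45203, and Slc7a12 is present in mice with and without Gm6300.

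By sequence, 4930422C21Rik matched no transcript of another gene, and Neurog2 matched its relative Neurog1 over 175 bases at 85.1% identity. Gm45203 matched parts of transcripts of 107 other genes over a short stretch, at best 156 bases at 82.7% identity.

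The genes most alike in level were ranked by Pearson's r of log2(CPM + 0.5) over the 12 mice, which takes in the difference between genotypes. For Gm6300 they were Neurog2 (r = 0.993), Alox15 (0.988) and Adh1 (0.983). For Neurog2 they were the unnamed transcript of chromosome 4 (0.995), Gm6300 (0.993) and Selenop (0.991). For Eif1ad3 they were Eif1ad7 (0.994), Masp2 (0.993) and the unnamed transcript of chromosome 4 (0.989), and Eif1ad7 had Masp2 (0.996) in front. For 4930422C21Rik, Cd3eap (0.981), Ltc4s (0.979) and Dab2ip (0.977) came closest, and for Gm45203, Lrrfip2 (0.990), Anapc4 (0.984) and Gm37529 (0.983).

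Few genes of the Neurog2 cascade were detected. Of 24 listed genes of neuronal differentiation, 15 had at most 3 counts in every mouse and 11 had 0 counts in all, including Neurog1, Neurog3, Neurod1, Neurod4 and Dcx. Only 5 were tested, with 2 higher and 0 lower in Model against Ctrl and 2 higher and 1 lower in YHY against Ctrl, where 19.6% and 18.5%, and 26.1% and 24.2%, of all genes were. In Model against Ctrl, Rnd2, which acts in migrating neurons, had a log2 fold change of 1.11 (adjusted P = 0.00079) and Elavl3, which encodes a neuronal RNA-binding protein, of 1.51 (adjusted P = 0.0101). Rnd2 was lower in YHY against Model, with -1.19 (adjusted P = 0.00311), and Elavl3 was higher in YHY against Ctrl, with 1.15 (adjusted P = 0.03). The Notch ligand Dll1 had a log2 fold change of 0.87 in YHY against Ctrl (adjusted P = 0.00268). Hes6, a relative of the Notch target genes, went from 36.0 to 56.0 CPM in Ctrl mice to 19.0 to 25.3 CPM in YHY mice (adjusted P = 6.63e-05). It did not follow the genotype, with 35.8 to 43.7 CPM in Model mice (adjusted P = 0.458 against Ctrl) and a log2 fold change of -0.85 in YHY against Model (adjusted P = 0.00315).

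Of 17 genes expressed at the cleavage stage of the embryo, among them Zscan4c and Zfp352, 16 had 0 counts in all mice; Duxf3 had 6 counts in YHY 3. Translation initiation factors of the steps in which eIF1A and eIF2 act were present in every group. Of 10 listed, 1 was higher and 6 lower in Model against Ctrl, with a median log2 fold change of -0.59, beside 19.6% and 18.5% of all genes, and likewise 1 and 6 in YHY against Ctrl with a median of -0.70, beside 26.1% and 24.2%. Eif1ax had a log2 fold change of -0.88 (adjusted P = 0.0021) and Eif2s1 of -1.29 (adjusted P = 2.37e-05) in Model against Ctrl, whereas Eif5b was higher, with 1.35 (adjusted P = 0.000103). Eif1ad itself, on chromosome 19, had 0.13 (adjusted P = 0.48).

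Genes known to vary between inbred strains were read as levels only. Of 7 listed, 6 were in the count table and 5 were tested, with 1 higher (Gpnmb) and 2 lower (Glo1 and H2-Ea) in Model against Ctrl, beside 19.6% and 18.5% of all genes. H2-Ea, an MHC class II gene that some strains lack, had 1381 to 3155 counts in Ctrl, 270 to 682 in Model and 266 to 841 in YHY mice, so it was expressed in all 12. Nnt had 13 to 30 counts in Ctrl, 0 to 24 in Model and 2 to 14 in YHY mice. None of these 6 listed genes in the count table was present in a single genotype only.

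The tissue label was checked against markers. All 9 kidney markers were detected, led by Slc34a1 of the proximal tubule, and their summed level was 5310 to 5610 CPM in Ctrl, 3770 to 4210 in Model and 3100 to 4710 in YHY mice. The markers did not move together: in Model against Ctrl, 2 were higher (Nphs1 and Slc12a3) and 3 lower (Umod, Lrp2 and Aqp2), beside 19.6% and 18.5% of all genes, with a median log2 fold change of 0.0584. The 9 adrenal markers summed to 1.44 to 2.37 CPM in Ctrl, 3.35 to 6.14 in Model and 3.48 to 4.22 in YHY mice, led by Star, with Cyp11b2 and Dbh at 0 counts. The 5 fat markers summed to 0.182 to 0.593, 1.03 to 2.57 and 0.663 to 1.82 CPM, led by Cidec. The 5 blood and lymphoid markers summed to 271 to 607, 225 to 421 and 292 to 939 CPM, led by Hba-a1. The 5 pancreas markers summed to 14.4 to 59.0, 42.9 to 71.3 and 7.14 to 18.2 CPM, nearly all from Cela1, with Prss2 at 0 counts. The part of these cell types in the 6 transcripts was not tested.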

How the data were processed

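The authors deposited raw counts of reads per gene for each mouse, with gene lengths and coordinates. Per the submitters' processing notes the tools were FastQC 0.11.9, Trimmomatic 0.39, HISAT2 2.2.1, SAMtools 1.12 and featureCounts 2.0.1 on GRCm39, and the strand setting of the counting is not given in the sources used here. Their comparison and pathway tables, which hold fold changes, p-values and 12 columns of values per mouse, were not used; they leave out a mouse of each group, and in that of YHY against Model some Model columns carry YHY names. The test was that of edgeR 4.0.16, run in R 4.3.3 (TMM, filterByExpr, quasi-likelihood, two-sided, Benjamini-Hochberg over 17431 genes) in a single fit of 3 groups. The SE is the log2 fold change divided by the root of its F statistic. CPM and ratios of pooled counts used the TMM-scaled library sizes, with exact 95% binomial intervals. Counts of replicate mice differed beyond sampling noise (chi-square per degree of freedom 18.8 to 154). Sequences came from GENCODE M21 and RefSeq and were compared with BLAST 2.17.0. The fit was also tested on simulated data. Genes named are the 6 transcripts, the Eif1ad genes, the nearest and called neighbours within 500 kb, other silent genes, the 3 most alike genes and listed genes; 1 gene of the lists is not reported here. The members and lists were chosen with earlier results of these data known. Alternatives were DESeq2 1.42.0, other scalings, filters and windows, fewer mice and a replicate block.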

Additional observations from a re-analysis of the deposited data

Results flagged for a closer look

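Values of the 6 transcripts, the other silent genes, the Eif1ad genes, Idh2, Slc7a12, Lepr, Zgrf1, Alpk1, the summed marker lists and the mitochondrial share were looked at for a single mouse far from the others of its group. Groups with at most 3 counts of a gene in each mouse were left out. Of 60 groups of 4 mice, 9 had such a mouse. Chance gives about 1 in 20, but the 2 shares cannot be compared, since in 3 of the 9 the other mice had 0 counts and any count then stands apart. Gm45203 was 2.58 CPM in Model 1 against 12.8 to 14.0 in the other Model mice, and Model 1 also had the lowest mitochondrial share of its group, 41.2%. Eif1ad3 was 3.80 CPM in Ctrl 3 against 1.75 to 2.07 in the other Ctrl mice. Slc7a12 was 21.6 CPM in Ctrl 4 against 4.35 to 5.43 in the others. Among YHY mice, Gm6300 was 0.153 CPM and Eif1ad16 0.458 CPM in YHY 1, and the unnamed transcript of chromosome 5 was 0.149 CPM in YHY 3, with 0 in the other mice each time. The mitochondrial share was 22.7% in Ctrl 2 against 18.4% to 18.6%, and 64.6% in YHY 2 against 53.8% to 54.6%. The summed fat markers were 2.57 CPM in Model 2 where the rest of the group had 1.03 to 1.19 CPM.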

How the results depend on the processing

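In YHY against Ctrl, the fitted log2 fold changes, which depend on the prior count, moved by over 1.5 times for Gm6300 (-10.1 to -13.6) and Eif1ad7 (-5.79 to -7.20) without YHY 1, for 4930422C21Rik (8.46 to 10.37) without Ctrl 3, for Gm45203 (4.80 to 5.62) with the 9 mice other than Ctrl 2, Model 1 and YHY 4, and for Neurog2 (-10.25 to -9.40) and Eif1ad3 (-9.16 to -8.30) with DESeq2. With at least 10 counts required in every sample, none of the 6 passed the filter, so no value was had. In YHY against Model, 4930422C21Rik was called in none of the 19 alternatives that could be fitted, and its log2 fold change, -0.10 with all mice, ran from -0.28 to 0.0353 with a mouse left out, being 0.0353 without Model 4 and 0.0332 without YHY 2, and was -0.43 with those 9 mice. Gm45203, -0.52 with all mice and likewise called in none, ran from -0.87 without YHY 2 to -0.23 without YHY 4. The number of genes called in YHY against Model was 2311, but 1177 with library size alone and 1385 with only the 8 mice compared, and 1146 to 2723 with a mouse left out, the lowest without Model 3. The cause was not tested. Library size alone moved the median log2 fold change of all genes from 0.04 to -0.39 in Model against Ctrl and from 0.10 to -0.33 in YHY against Ctrl, and the calls to 1547 higher and 5667 lower, and 2365 and 5977. For Model against Ctrl, upper-quartile scaling gave 4025 higher and 2622 lower, beside 3412 and 3219. Neighbours called numbered 23 of 57 within 500 kb and 37 of 96 within 1000 kb, a wider window. They were 29 of 55 with only the 8 mice compared, 22 of 45 with at least 10 counts required in every sample, and 29 of 115 without a filter. With a mouse left out, the number ran from 16 (of 61, without Ctrl 1) to 28 (of 62, without YHY 2). The share over all genes is not given for these settings. Genes silent in a single genotype numbered 11, but 6 at a limit of 0 counts, 67 at 10 counts, 7 with at least 50 counts for presence and 13 to 19 with a mouse left out (19 without Model 1, 17 without Ctrl 2 and 17 without Ctrl 4), where fewer mice had to meet the limits. Same-numbered mice did not deviate together (correlations -0.208 to 0.17), so the numbers do not pair them. With the replicate block, 8424, 1920 and 6289 genes were called in YHY against Ctrl, YHY against Model and Model against Ctrl, and 20 neighbours. Depth limits the near-absent transcripts: 3 counts are 0.0683 to 0.166 CPM. Count ratios without a mouse were added after the values were seen.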
